A study of Mus musculus with 9 samples.

Results

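The proteasome genes described here are the 36 genes, of 24421 in the count tables, whose symbols consist of Psma, Psmb, Psmc or Psmd followed by a number, with Psmb8, Psmb9 and Psmb10 left out. Those 3 encode the inducible catalytic subunits of the immunoproteasome and served for comparison. The 36 genes fall into 8 genes of the 20S alpha ring, 8 of the 20S beta ring, 6 of the 19S ATPase ring, 3 other genes of the 19S base, 8 genes of the 19S lid and 3 genes for chaperones of base assembly. Intestinal cells from C57BL/6 mice at 6 days after birth were dissociated and sorted with an antibody to EphB2, a receptor whose surface level is highest on cells at the crypt base, and their poly(A) RNA was sequenced. WT stands for wild type and KO for the mice labelled IkBa KO, after IκBα, the inhibitor that holds NF-κB in the cytoplasm and is encoded by Nfkbia. There were 2 WT EphB2-positive, 3 KO EphB2-positive, 2 WT EphB2-negative and 2 KO EphB2-negative libraries, and the labels give no treatment. The labels do not give the kind of KO allele, the cells that carry it, or whether the libraries of a group came from separate animals, so the p-values measure the spread between these libraries, which may be technical.

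The proteasome is the particle that degrades proteins tagged with ubiquitin. Its 20S core is a barrel of outer alpha rings, which gate the entrance, and inner beta rings, in which Psmb5, Psmb6 and Psmb7 carry the chymotrypsin-like, caspase-like and trypsin-like activities. The 19S cap binds the core: its base holds the ATPase ring of Psmc subunits that unfolds the substrate, and its lid holds Psmd14, the enzyme that removes the ubiquitin chain. In cells exposed to interferon or NF-κB signalling, the immunoproteasome subunits Psmb8, Psmb9 and Psmb10 can take the places of Psmb5, Psmb6 and Psmb7. The transcription factor Nrf1 (Nfe2l1) induces the constitutive genes together through antioxidant response elements, and NF-κB itself is released when IκBα is degraded by the proteasome.

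The name of constitutive subunits did not hold for every gene. Psma8, a testis form of an alpha subunit, had 1 read over the 9 libraries, and Psmb11, the beta subunit of the thymus proteasome, had 0 to 4 reads in a library. Both failed the filter on low counts, which left 34 of the 36 genes among 11577 tested. Psmd5, Psmd9 and Psmd10 encode chaperones that leave the base before the particle is complete. Adrm1, which encodes a ubiquitin receptor of the finished cap, is not matched by the symbols and is treated with the other proteasome-bound proteins. The 36 genes lie on 16 chromosomes, and Psma6 lies 71.0 kb from Nfkbia, the gene knocked out, on chromosome 12.

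Reads assigned to genes numbered 1503972 to 2074076 per library, so 1 read was worth about 0.46 to 0.67 CPM, the read count scaled to a common library size with trimmed-mean (TMM) factors. For Nfkbia, each of the 5 KO libraries had 0 reads, WT EphB2-positive libraries 58 and 163 and WT EphB2-negative libraries 47 and 114. Ephb2 itself stood, among EphB2-positive libraries, at 142 and 160.3 CPM in WT and 182, 183 and 171 CPM in KO. Among EphB2-negative libraries it stood at 125 and 66.8 CPM in WT and 30.7 and 34.4 CPM in KO. The first WT EphB2-negative library therefore lay near the EphB2-positive libraries in Ephb2, and its summed intestinal stem cell markers (2282 CPM) also lay nearer to them than those of the second WT EphB2-negative library (586 CPM). These 2 libraries differed from each other by a chi-square of 24.2 per degree of freedom over all genes, against 1.93 to 4.32 for the other pairs of one group, and the counts and calls that rest on them are also given without each, as far as they change. The epithelial genes Epcam and Cdh1 were high in all 9 libraries (932 to 1645 CPM and 728 to 1195 CPM).

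The sequences before the start sites of these genes can be compared directly. RefSeq promoter windows (GRCm38.p6, 250 bases before to 50 bases after the start) were matched for 29 of the 36 genes. The core of the antioxidant response element, TGACNNNGC, was searched on both strands and found in 5 of the 29 genes (17.2%), against 14% of 27025 genes with a window. The matches lay 47 bases before the start in Psmb5, 9 bases before it in Psmb6 and 31 bases before it in Psmd9, and, on the opposite strand, 227 bases before it in Psmc6 and 247 bases before it in Psmd12. A match shows only that these letters are present, and the absence of one only that they are not in the window. The lines show 100 bases, 5′ to 3′ on the gene's strand with the match in capitals, for 2 genes of the catalytic chamber (Psmb5 and Psmb6), for the base chaperone gene Psmd9 and for Psmd12, and for 2 genes without a match, Psma3 and Psmd14, to which the expression results return. The intervals are chr14:54617996-54618095 on the minus strand, chr11:70525257-70525356 on the plus strand, chr5:123228090-123228189 on the plus strand, chr11:107479278-107479377 on the plus strand, chr12:70974523-70974622 on the plus strand and chr2:61711594-61711693 on the plus strand. They end 1 base before the start, except that of Psmd12, which ends 151 bases before it.

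Psmb5: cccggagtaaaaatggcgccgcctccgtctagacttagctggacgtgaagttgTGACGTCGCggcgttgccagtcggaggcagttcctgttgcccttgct
Psmb6: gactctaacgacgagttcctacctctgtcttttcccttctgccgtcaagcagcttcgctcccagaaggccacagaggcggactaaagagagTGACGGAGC
Psmd9: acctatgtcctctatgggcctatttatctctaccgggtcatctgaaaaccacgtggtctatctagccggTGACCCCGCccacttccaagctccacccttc
Psmd12: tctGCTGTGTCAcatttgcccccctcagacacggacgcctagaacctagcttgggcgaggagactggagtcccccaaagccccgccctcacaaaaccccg
Psma3: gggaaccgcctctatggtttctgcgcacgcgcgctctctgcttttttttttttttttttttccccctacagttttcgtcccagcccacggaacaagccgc
Psmd14: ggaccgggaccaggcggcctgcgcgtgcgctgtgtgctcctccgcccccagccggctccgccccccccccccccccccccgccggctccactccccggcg

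Levels of different genes can be compared only per length. Per kb of the principal transcript, Psmb6 (221 ± 3.73 CPM per kb, SD, n = 2), Psma7 (209 ± 5.59) and Psmb3 (206 ± 21.1), all genes of the 20S core, had the highest levels in the WT EphB2-positive libraries. The chaperone genes Psmd10 (19.6 ± 1.52 CPM per kb), Psmd5 (14.4 ± 1.31) and Psmd9 (9.57 ± 0.431) had the 3 lowest levels of the 34 tested genes there, and they were the 3 lowest of the 34 in each of the other groups as well. Psmb6 also led in the WT EphB2-negative libraries, with 185 ± 59.8 CPM per kb. Psma7 led in the KO EphB2-positive libraries (281 ± 2.60, n = 3), and Psmb3 in the KO EphB2-negative libraries (241 ± 15.0, n = 2).

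Summed over the 36 genes, proteasome reads in EphB2-positive libraries came to 5275 and 5672 CPM in WT and 7364, 7214 and 7171 CPM in KO, so the 3 KO libraries lay above both WT libraries. In the EphB2-negative libraries the sums were 5556 and 4033 CPM in WT and 5652 and 5267 CPM in KO, where the groups overlapped. The balance of core and cap was compared as well: the ratio of reads in the 20S genes to reads in the 19S subunit genes was 0.909 and 0.829 in the WT EphB2-positive, 0.865, 0.796 and 0.822 in the KO EphB2-positive, 0.915 and 0.816 in the WT EphB2-negative and 0.804 and 0.844 in the KO EphB2-negative libraries. These ranges overlapped between all 4 groups. In bulk RNA, fewer cells of a type and less RNA per cell cannot be told apart.

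**Figure D1:**
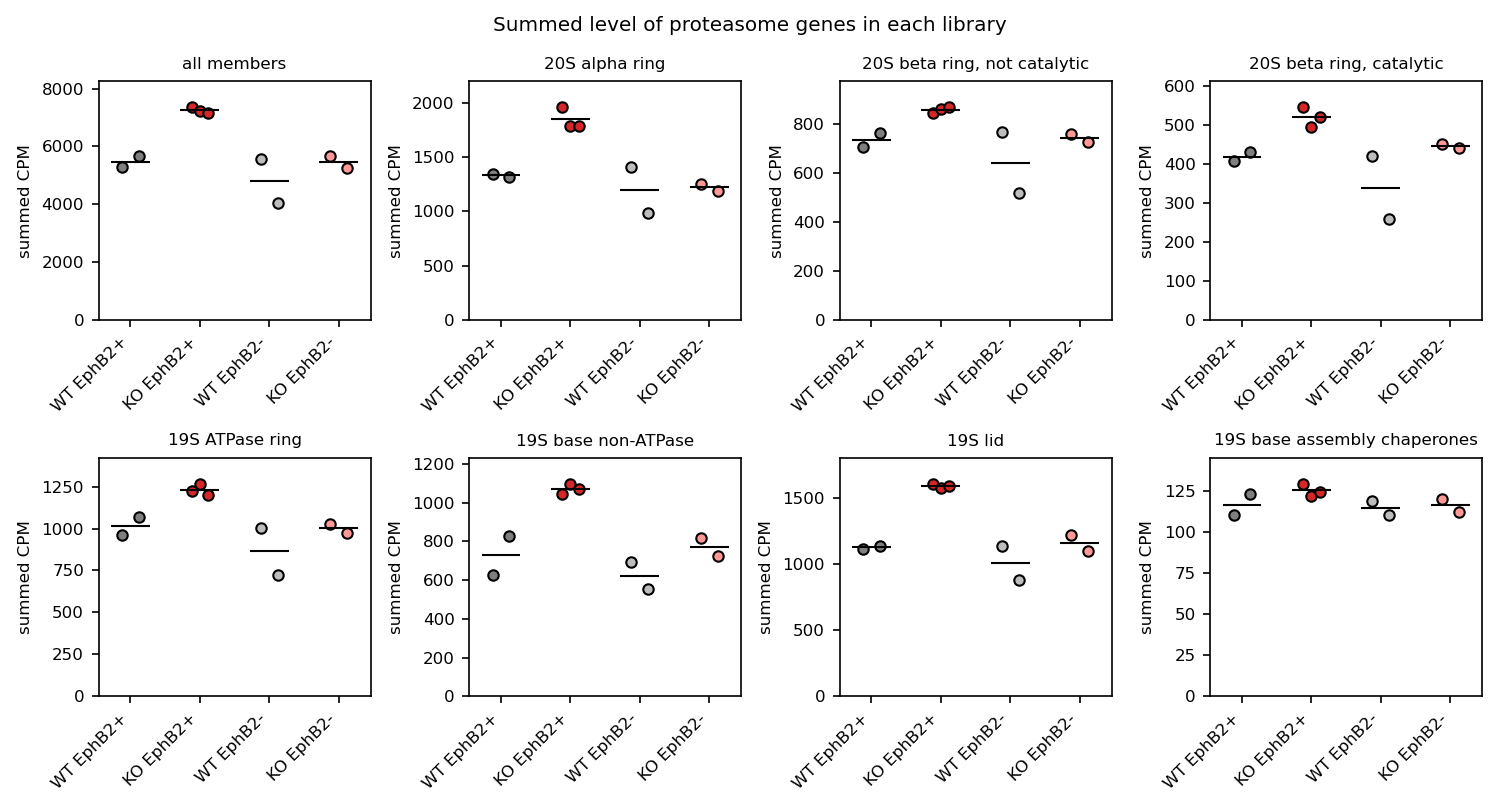
Summed CPM of all 36 genes and of each subcomplex (panels; vertical axis in TMM-scaled CPM from 0), by group; points are libraries and lines the group means. In the KO EphB2-positive libraries the sum over all 36 genes was 7171 to 7364 CPM, against 5275 and 5672 CPM in the WT EphB2-positive libraries, while the WT EphB2-negative libraries lay apart at 5556 and 4033 CPM.

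The first comparison asked how the loss of IκBα changed these genes in the EphB2-positive cells. Of the 34 tested genes, 7 rose in KO at an adjusted p under 0.05 and 0 fell, against 7.01% of all 11577 genes that rose and 8.07% that fell (15.1% in either direction; edgeR's quasi-likelihood test with Benjamini-Hochberg adjustment). At an unadjusted p under 0.05, 16 were higher (13.8% of all genes) and 0 lower, and DESeq2 called 10 higher and 0 lower. Their median log2 fold change was 0.38, a 1.30-fold higher level, against -0.01 over all genes tested, and 31 of the 34 lay above 0 (47.8% of all genes did). In 27 of them each KO library was above each WT library (26.9% of all genes), and in 2, Psmb1 and Psmd10, each KO library was below each WT library (28.6%). Besides the genes that changed most, 8 genes were followed through every comparison: Psma7, Psmb5, Psmb6, Psmb7, Psmc4, Psmd4, Psmd11 and Psmd14. The genes that rose were 1 of the alpha ring (Psma3), 2 of the base (Psmd1 and Psmd2) and 4 of the lid (Psmd3, Psmd12, Psmd13 and Psmd14).

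In the 20S core, Psma3, an alpha ring subunit gene (chr12:70974621-70996347, GRCm38), had 175 and 159.8 CPM in the WT and 321, 247 and 242 CPM in the KO EphB2-positive libraries. The groups did not overlap, and Psma3 rose by a log2 fold change of 0.69 ± 0.16, adjusted p = 0.021 (± is the SE throughout). Psma7, the alpha subunit gene with the highest level per kb, had 188 and 195 CPM in WT and 259.6, 256 and 255 CPM in KO, again without overlap, but its change did not pass the test (0.43 ± 0.17, adjusted p = 0.13). Of the catalytic genes, Psmb5 (chr14:54614119-54618022) had 84.5 and 88.3 CPM in WT and 123, 97.6 and 98.7 CPM in KO (0.30 ± 0.21, adjusted p = 0.38). Psmb6 (chr11:70525367-70527858) had 174 and 179 CPM in WT and 197, 183 and 195 CPM in KO (0.12 ± 0.18, adjusted p = 0.72). Psmb7 (chr2:38588036-38644087) had 147 and 163 CPM in WT and 224, 214 and 224 CPM in KO (0.51 ± 0.19, adjusted p = 0.11). All 3 KO values were above both WT values in each of these catalytic genes, and none of the 3 passed the test. Over the core, 1 of 14 genes rose, and the log2 fold changes ran from -0.15 for Psmb1 to that of Psma3, with a median of 0.41.

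In the ATPase ring, 0 of 6 genes rose with edgeR or with DESeq2, 1 (Psmc2) was higher at an unadjusted p under 0.05, and the median log2 fold change was 0.26. Psmc4, one of the ATPases, had 160.1 and 158 CPM in WT and 189, 186 and 183 CPM in KO, a difference without overlap that did not pass the test (0.23 ± 0.15, adjusted p = 0.35). Of the other 3 genes of the base, 2 rose. Psmd2 (chr16:20651652-20663414), the base scaffold to which ubiquitin shuttle factors dock, had 289 and 409.97 CPM in WT and 549, 577 and 524 CPM in KO, and rose by 0.65 ± 0.18, adjusted p = 0.034. Psmd1 (chr1:86064387-86139151), the second large scaffold of the base, had 194 and 259 CPM in WT and 338, 347 and 357 CPM in KO, and rose by 0.62 ± 0.17, adjusted p = 0.040. In both genes the 2 WT libraries were far apart, with replicate 2 the higher, yet both lay below all 3 KO libraries. Psmd4, the ubiquitin receptor of the base, had 145 and 158 CPM in WT and 158, 175 and 191 CPM in KO, groups that overlapped by less than 1 CPM (0.20 ± 0.17, adjusted p = 0.48).

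The lid held most of the genes that rose, 4 of 8, with a median log2 fold change of 0.53. At an unadjusted p under 0.05, 6 of 8 lid genes and 5 of 7 tested alpha ring genes were higher (13.8% of all genes). DESeq2 called 5 lid genes and 3 alpha ring genes higher, and the alpha ring had a median of 0.47. Whether the subcomplexes differ from each other was not tested. Psmd12 (chr11:107479484-107504362), a scaffold subunit of the lid, had 104 and 102 CPM in the WT and 182, 166 and 145 CPM in the KO EphB2-positive libraries, and rose by 0.67 ± 0.16, adjusted p = 0.020. Psmd3 (chr11:98682554-98695979), another scaffold subunit, had 236 and 241 CPM in WT and 364, 366 and 371 CPM in KO, and rose by 0.62 ± 0.16, adjusted p = 0.030. Libraries of one group lay close together in Psmd3, and the WT and KO groups were more than 100 CPM apart. Psmd14 (chr2:61711694-61800376), the deubiquitinase, had 137 and 128 CPM in WT and 178, 198 and 215 CPM in KO, and rose by 0.57 ± 0.15, adjusted p = 0.026. Psmd13, the seventh gene that rose, had 125 and 118 CPM in WT and 165, 171 and 178 CPM in KO (0.50 ± 0.13, adjusted p = 0.035). In neither gene did the groups overlap, and in Psmd14 the KO libraries were the more spread. Psmd11, a lid subunit gene whose raised level is known to raise proteasome activity in embryonic stem cells, had 101 and 114 CPM in WT and 159, 124 and 134 CPM in KO, without overlap, and did not pass the test (0.37 ± 0.15, adjusted p = 0.14). Among the chaperone genes, 0 of 3 rose with edgeR or DESeq2 and 1 was higher at an unadjusted p under 0.05: Psmd9, named after its values were seen as the nearest miss, had 24.1 and 25.7 CPM in WT and 36.7, 35.7 and 40.1 CPM in KO (0.59 ± 0.18, adjusted p = 0.0507).

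The count of 7 rested on few libraries. It was 0 without WT EphB2-positive replicate 1 or KO EphB2-positive replicate 2, 1 without WT EphB2-positive replicate 2 or KO EphB2-positive replicate 1, 2 without KO EphB2-positive replicate 3, 3 without either KO EphB2-negative library and 19 without either WT EphB2-negative library, while the median stayed between 0.34 and 0.46. With no TMM factor, which moved the median of all genes to -0.13, 2 genes rose and 0 fell. Summed stem cell markers were lower in the KO EphB2-positive libraries (2513, 2189.9 and 3248 CPM against 4912 and 4499 CPM), as were absorptive enterocyte markers (1700.3, 1609 and 1441 CPM against 2605 and 4392 CPM), and their part in the result was not tested. The sum of the cell cycle markers differed little (3834, 3811 and 3812 CPM against 3784 and 3701 CPM). Single markers ran from a log2 fold change of -0.40 to 0.90, with 5 of 12 above 0, 1 that rose and 0 that fell. Of 11 leukocyte markers, 5 to 8 were at 0 in each EphB2-positive library, the sums were 65.8 and 63.6 CPM in WT and 92.8, 94.3 and 112 CPM in KO, and Ptprc, the pan-leukocyte gene, had 1 read over these 5 libraries.

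**Figure D2:**
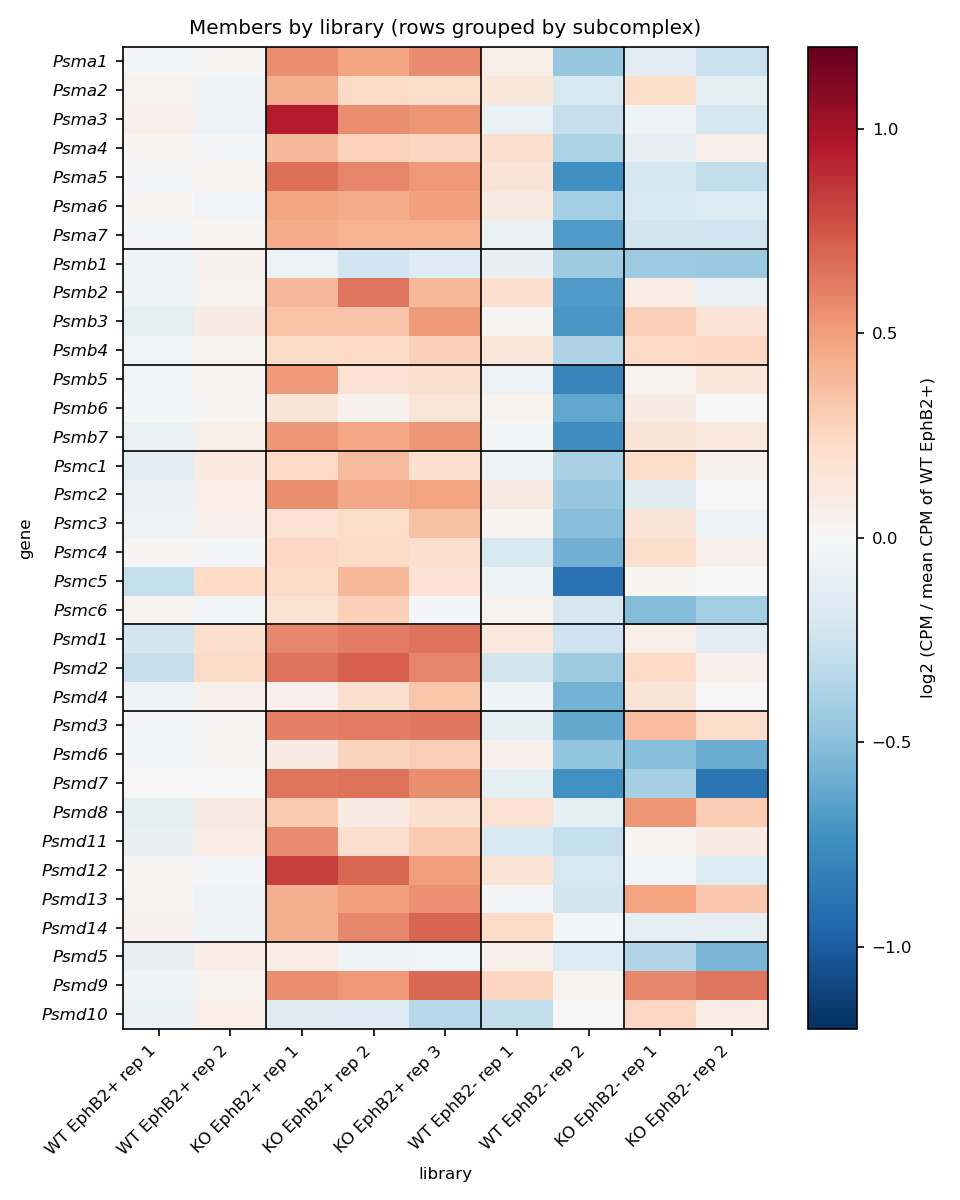
Heat map of the 34 tested proteasome genes (rows, grouped by subcomplex) in the 9 libraries (columns, grouped by genotype and sort); the colour is the log2 ratio of a library's CPM to the gene's mean CPM in the WT EphB2-positive libraries. The 3 KO EphB2-positive columns are red for most rows, and WT EphB2-negative replicate 2, with a summed level of 4033 CPM, is blue for most.

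**Figure D3:**
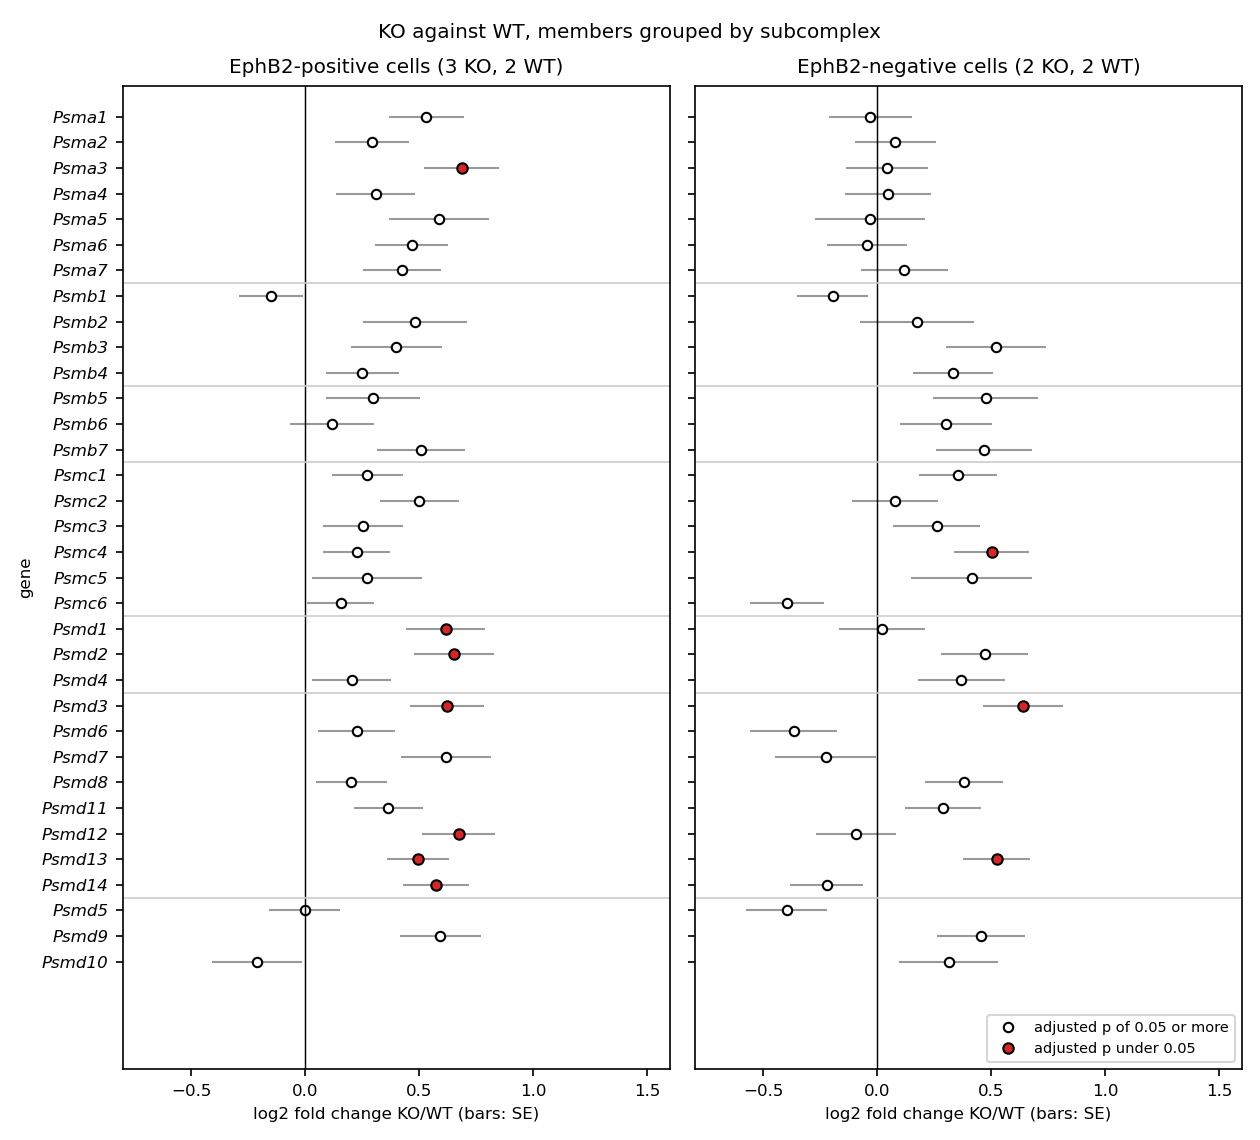
Log2 fold change of KO against WT (horizontal axis) for each tested gene (rows), in EphB2-positive and in EphB2-negative cells; bars are 1 SE and filled points passed an adjusted p of 0.05. In EphB2-positive cells 31 of 34 points lie above 0 and 7 passed, and in EphB2-negative cells 24 lie above 0 and 3 passed.

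In the EphB2-negative cells, 3 of the 34 genes rose in KO and 0 fell, against 13.7% of all genes that rose and 16.2% that fell (29.9% in either direction), so the share of proteasome genes called was below that of all genes. At an unadjusted p under 0.05, 7 were higher (18.7% of all genes) and 2 lower, and DESeq2 called 4 higher and 0 lower. The median log2 fold change was 0.22 against -0.09 over all genes, and 24 of 34 lay above 0 (45.7% of all genes). Each KO library was above each WT library in 15 genes (28.7% of all genes) and below in 5 (34.6%). Psmd3, the lid scaffold gene, had 219.6 and 156 CPM in WT and 309 and 276 CPM in KO, and rose by 0.64 ± 0.18, adjusted p = 0.024. Psmd13, also of the lid, had 119.6 and 105 CPM in WT and 170.2 and 152 CPM in KO, and rose by 0.52 ± 0.15, adjusted p = 0.025. Psmc4, the ATPase gene, had 140.2 and 106 CPM in WT and 184 and 166 CPM in KO, and rose by 0.50 ± 0.16, adjusted p = 0.043. In all 3 genes the second WT library was the lowest and both KO libraries the highest. Leaving out each of the 9 libraries in turn, Psmc4 passed in 1 of 9 fits, the one without WT EphB2-negative replicate 1 (0.71), and it was 0.31 without replicate 2, with an adjusted p of up to 0.21. Psmd3 was 0.91 without WT EphB2-negative replicate 1 and 0.41 without replicate 2, and Psmd13 0.63 and 0.42. Both passed in 7 of 9 fits and lost the call without either KO EphB2-negative library. Psmd3 and Psmd13 were the 2 genes that rose in both sorts.

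Of the 3 catalytic genes, Psmb5 and Psmb7 were higher in both KO EphB2-negative libraries than in both WT libraries, and none of the 3 passed the test. Psmb5 had 82.2 and 49.8 CPM in WT and 88.9 and 94.9 CPM in KO (0.48 ± 0.23, adjusted p = 0.14). Psmb7 had 153 and 92.9 CPM in WT and 173 and 168 CPM in KO (0.47 ± 0.21, adjusted p = 0.12). Psmb6 had 182 and 114 CPM in WT and 189 and 176 CPM in KO, which overlapped (0.30 ± 0.20, adjusted p = 0.28). In the alpha ring Psma7 overlapped as well, with 181 and 119 CPM in WT and 164 and 162 CPM in KO (0.12 ± 0.19, adjusted p = 0.67). Psmd4, the ubiquitin receptor, had 146 and 102 CPM in WT and 168 and 152 CPM in KO (0.37 ± 0.19, adjusted p = 0.17). The lid gene Psmd11 had 95.0 and 88.6 CPM in WT and 109 and 115 CPM in KO (0.29 ± 0.17, adjusted p = 0.21). In both of these cap genes each KO library was above each WT library. Psmd14, the deubiquitinase, lay on the other side of 0, with 156 and 131 CPM in WT and 122 and 124 CPM in KO (-0.22 ± 0.16, adjusted p = 0.31). Its 2 KO values were both below its 2 WT values.

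The direction in these cells depended on the scaling and on which WT library was kept. With no TMM factor, which moved the median of all genes to -0.42, 0 proteasome genes rose, 5 fell and their median was -0.11. Without WT EphB2-negative replicate 2, 2 rose, 5 fell and the median was -0.03, whereas without WT EphB2-negative replicate 1, 17 rose. The count was 0 without either KO EphB2-negative library. Stem cell markers (2282 and 586 CPM in WT, 178 and 253 CPM in KO) and cell cycle markers (2888 and 1201 CPM in WT, 869 and 713 CPM in KO) were lower in KO. Absorptive enterocyte markers summed to 13168 and 30742 CPM in WT and 27197 and 38988 CPM in KO, and leukocyte markers to 132 and 1144 CPM in WT and 1675 and 1335 CPM in KO, with 0 of 11 leukocyte markers at 0 in any of these 4 libraries. The part of these cell types in the result was not tested.

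Whether the KO effect differed between the sorts was tested as an interaction. The difference, the log2 fold change in EphB2-positive cells minus that in EphB2-negative cells, passed for 1 of the 34 genes, in the direction of a larger KO effect in EphB2-positive cells, against 6.54% of all genes called in that direction (5.81% in the other, 12.4% in either). DESeq2 also called 1. That gene was Psmd14, the lid deubiquitinase, with a difference of 0.80 ± 0.21, adjusted p = 0.041, from the log2 fold changes of 0.57 and -0.22 given above. The call was lost without 7 of the 9 libraries in turn, with an adjusted p from 0.0016 to 0.149, and 14 genes passed without WT EphB2-negative replicate 2. The median difference over the 34 genes was 0.16, against 0.06 over all genes, and 21 genes lay above 0 (52.7% of all genes). At an unadjusted p under 0.05, 8 were higher (16.6% of all genes) and 0 lower. Of the 8 genes followed, Psmb5 (-0.18 ± 0.31, adjusted p = 0.74), Psmb6 (-0.18 ± 0.27, adjusted p = 0.69), Psmb7 (0.04 ± 0.29, adjusted p = 0.96) and Psmd4 (-0.16 ± 0.26, adjusted p = 0.71) did not pass. Psma7 (0.31 ± 0.26, adjusted p = 0.45), Psmc4 (-0.27 ± 0.22, adjusted p = 0.43) and Psmd11 (0.08 ± 0.22, adjusted p = 0.85) did not pass either.

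The sorts themselves were compared within each genotype. In WT, 0 of 34 proteasome genes rose and 0 fell between EphB2-negative and EphB2-positive cells with edgeR, against 0.656% of all genes higher and 3.77% lower in EphB2-positive cells (4.43% in either direction). DESeq2 called 0, and 1 gene, Psmc4 (0.37 ± 0.16, adjusted p = 0.17), had an unadjusted p under 0.05 (11.1% of all genes were higher at that threshold). The median log2 difference was 0.18 against -0.02 over all genes, 31 of 34 lay above 0 (48.7% of all genes), and each EphB2-positive library was above each EphB2-negative library in 8 genes (26.5%) and below in 0 (28%). Here the 2 WT EphB2-negative libraries decided the value: 18 genes rose without replicate 1, and the median was -0.05 without replicate 2. Of the other followed genes of the core, the log2 differences were 0.35 ± 0.19, adjusted p = 0.25 for Psma7, 0.39 ± 0.23, adjusted p = 0.29 for Psmb5, 0.25 ± 0.20, adjusted p = 0.43 for Psmb6 and 0.33 ± 0.21, adjusted p = 0.32 for Psmb7. Of the cap they were 0.29 ± 0.19, adjusted p = 0.33 for Psmd4, 0.23 ± 0.17, adjusted p = 0.37 for Psmd11 and -0.12 ± 0.16, adjusted p = 0.65 for Psmd14. Cell cycle markers stood at 3784 and 3701 CPM in the EphB2-positive and 2888 and 1201 CPM in the EphB2-negative WT libraries, and absorptive enterocyte markers at 2605 and 4392 CPM and 13168 and 30742 CPM; their part in the result was not tested.

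In KO, 14 of 34 genes were higher in EphB2-positive than in EphB2-negative cells and 0 were lower, with edgeR, against 26.4% of all genes higher and 29.2% lower (55.5% in either direction), and DESeq2 called 13 higher and 0 lower. At an unadjusted p under 0.05, 14 were higher (29.3% of all genes) and 0 lower. The median log2 difference was 0.32 against -0.02 over all genes, 31 lay above 0 (49.3% of all genes), and each EphB2-positive library was above each EphB2-negative library in 24 genes (37.7% of all genes) and below in 1, Psmd10 (39.5%). By role, 5 of 7 alpha ring genes rose and 0 of 7 beta ring genes, 2 of 6 ATPases, 2 of 3 other base genes, 4 of 8 lid genes and 1 of 3 chaperones. Beta ring genes gave 0 with DESeq2 as well, with 0 at an unadjusted p under 0.05. Whether the rings differ from each other was not tested.

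Psmd7, the lid subunit gene that pairs with Psmd14 in the deubiquitinase module, had the largest log2 difference of the 34, with 272, 272 and 256 CPM in KO EphB2-positive and 132 and 94.9 CPM in KO EphB2-negative libraries (1.23 ± 0.21, adjusted p = 0.00088). Among alpha ring genes, Psma5 had 306, 289.98 and 278 CPM against 167 and 158 CPM (0.84 ± 0.22, adjusted p = 0.0099). The alpha gene Psma3 had 321, 247 and 242 CPM against 159.96 and 145 CPM (0.82 ± 0.17, adjusted p = 0.0025). In these 3 genes the sorts were far apart and no library overlapped. Psmd6, a lid subunit gene, had 122, 137 and 139 CPM against 80.0 and 75.1 CPM (0.78 ± 0.18, adjusted p = 0.0043). Psmd12 had 182, 166 and 145 CPM against 100.5 and 91.7 CPM (0.77 ± 0.16, adjusted p = 0.0030), and Psma1, of the alpha ring, 253, 238 and 254 CPM against 157 and 143 CPM (0.73 ± 0.17, adjusted p = 0.0047). In all 3 each EphB2-positive library was again above both EphB2-negative libraries.

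Of the followed genes, Psmd14 (0.68 ± 0.15, adjusted p = 0.0035) and Psma7 (0.66 ± 0.18, adjusted p = 0.010) also rose. The lid gene Psmd11 (0.31 ± 0.15, adjusted p = 0.11), the ubiquitin receptor Psmd4 (0.12 ± 0.17, adjusted p = 0.56) and the ATPase Psmc4 (0.09 ± 0.15, adjusted p = 0.62) did not pass. None of the 3 catalytic genes passed. Psmb5 differed by 0.21 ± 0.21, adjusted p = 0.42, Psmb6 by 0.07 ± 0.18, adjusted p = 0.76 and Psmb7 by 0.37 ± 0.19, adjusted p = 0.13; the sign of Psmb6 turned with DESeq2's scaling. The remaining 6 that rose, Psmd1, Psma6, Psmc6, Psmc2, Psmd2 and Psmd5, had log2 differences from 0.44 to 0.65, and Psmd2 and Psmd5 lost the call with DESeq2 size factors. The count fell to 8 without KO EphB2-negative replicate 2 and was 10 to 19 without any other library. Cell cycle markers stood at 3834, 3811 and 3812 CPM in the KO EphB2-positive and 869 and 713 CPM in the KO EphB2-negative libraries, and leukocyte markers at 92.8, 94.3 and 112 CPM and 1675 and 1335 CPM. Stem cell markers stood at 2513, 2189.9 and 3248 CPM and 178 and 253 CPM, with 9 of 10 higher in EphB2-positive cells, and absorptive enterocyte markers at 1700.3, 1609 and 1441 CPM and 27197 and 38988 CPM, with 12 of 12 lower. The part of these cell types in the result was not tested.

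**Figure D4:**
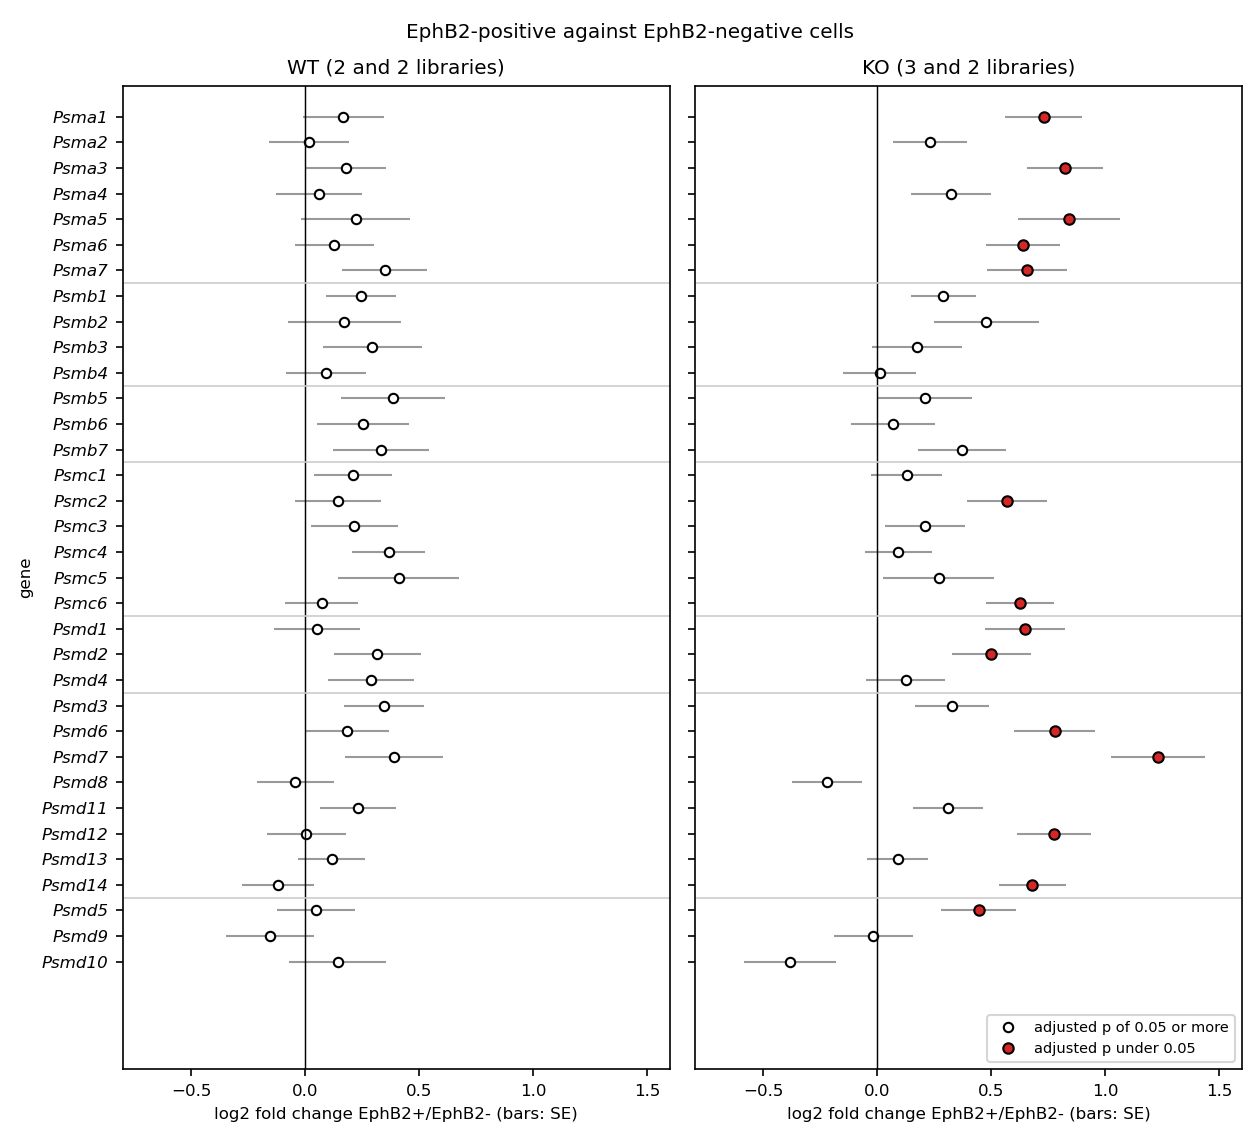
Log2 difference between EphB2-positive and EphB2-negative cells (horizontal axis) for each tested gene (rows) in WT and in KO; bars are 1 SE and filled points passed an adjusted p of 0.05. In KO 14 points passed, led by Psmd7, and in WT 0 did.

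Over the 4 comparisons of 2 groups, 17 of the 34 genes rose in at least 1 and 17 in none. The share of all genes that rose in at least 1 was not computed, so these counts have no background. In the single comparisons 0.656% to 26.4% of all genes rose. The 17 that rose in none held all 7 tested beta ring genes (Psmb1 to Psmb7), 2 alpha genes, 3 ATPase genes, Psmd4, 2 lid genes and the chaperones Psmd9 and Psmd10. Psmd10, also known as gankyrin, was among the least expressed, at 26.5 and 29.6 CPM in WT and 25.4, 25.2 and 22.1 CPM in KO EphB2-positive libraries. Psmb1, the only one of the 34 genes with every KO library below every WT library in both sorts, had 216 and 230.4 CPM in WT and 212, 190.5 and 201 CPM in KO EphB2-positive libraries (-0.15 ± 0.14, adjusted p = 0.53). It had 210.01 and 166 CPM in WT and 164 and 164 CPM in KO EphB2-negative libraries (-0.20 ± 0.16, adjusted p = 0.36). The 11 genes whose KO libraries all lay above the WT libraries in both sorts were Psmb3, Psmb4, Psmb5, Psmb7, Psmc1, Psmc4, Psmd2, Psmd3, Psmd9, Psmd11 and Psmd13. Among all genes, each KO library was above each WT library in 26.9% in EphB2-positive and 28.7% in EphB2-negative cells, and below in 28.6% and 34.6%. The shares of all genes above or below in both sorts were not computed. Exons of 6 genes, Psma4, Psmb5, Psmb7, Psmc3, Psmd1 and Psmd13, overlap another gene in the tables, among them 342 bases of Psmd13 with Sirt3, and whether counting used the strand is not given in the sources used here, so their reads are less certain. Psmb5, Psmb6 and Psmb7 also have annotated pseudogenes, none of them counted in the tables.

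The 3 immunoproteasome genes rose in KO in both sorts. They were set beside the constitutive genes whose products they replace. Psmb8 rose in KO by 2.27 ± 0.18, adjusted p = 0.00014 in EphB2-positive and 2.15 ± 0.18, adjusted p = 0.00015 in EphB2-negative cells. Psmb9 rose by 1.74 ± 0.17, adjusted p = 0.00029 and 1.83 ± 0.17, adjusted p = 0.00024, and Psmb10 by 0.70 ± 0.14, adjusted p = 0.011 and 1.26 ± 0.16, adjusted p = 0.00075, in the same order. A ratio within a library does not depend on the scaling between libraries. Reads of Psmb8 to those of Psmb5, uncorrected for length and so compared only between libraries, stood at 0.517 and 0.369 in WT and 1.42, 1.92 and 1.93 in KO EphB2-positive libraries. In the EphB2-negative libraries they stood at 0.650 and 1.29 in WT and 3.12 and 2.60 in KO. All KO ratios were above all WT ratios within each sort. The ratio of Psmb9 to Psmb6 was 0.163 and 0.141 in WT and 0.451, 0.458 and 0.500 in KO EphB2-positive libraries, and 0.171 and 0.297 in WT and 0.566 and 0.700 in KO EphB2-negative libraries. For Psmb10 to Psmb7 it was 1.01 and 0.831 in WT and 1.03, 1.05 and 1.06 in KO EphB2-positive libraries, a gap of little more than 0.01 to the nearer WT library, and 0.967 and 1.29 in WT and 1.93 and 1.84 in KO EphB2-negative libraries. Leukocytes also express these 3 genes, and the leukocyte marker sums were higher in KO in both sorts: 65.8 and 63.6 CPM in WT against 92.8, 94.3 and 112 CPM in KO EphB2-positive libraries, and 132 and 1144 CPM against 1675 and 1335 CPM in EphB2-negative libraries. Marker by marker, 5 of the 11 leukocyte genes had a log2 fold change above 0 in EphB2-positive cells, with a median of 0. In EphB2-negative cells 11 of 11 did, and 0 passed the test in either sort. Ptprc had 1 read over the EphB2-positive libraries. The part of leukocytes in these ratios was not tested. Between the sorts in KO, Psmb8 (-0.51 ± 0.15, adjusted p = 0.019) and Psmb10 (-0.48 ± 0.14, adjusted p = 0.015) were lower in EphB2-positive cells, calls lost with no TMM factor, and Psmb9 did not pass (-0.35 ± 0.15, adjusted p = 0.065), though it did with DESeq2 size factors. In fits that left out each library in turn, added after seeing the data, the KO calls of Psmb8 and Psmb9 in both sorts and of Psmb10 in EphB2-negative cells passed every time. That of Psmb10 in EphB2-positive cells was lost without either WT EphB2-positive library, and the calls of Psmb8 and Psmb10 between the sorts in KO without either KO EphB2-negative library and, respectively, without KO EphB2-positive replicate 1 and 2.

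**Figure D5:**
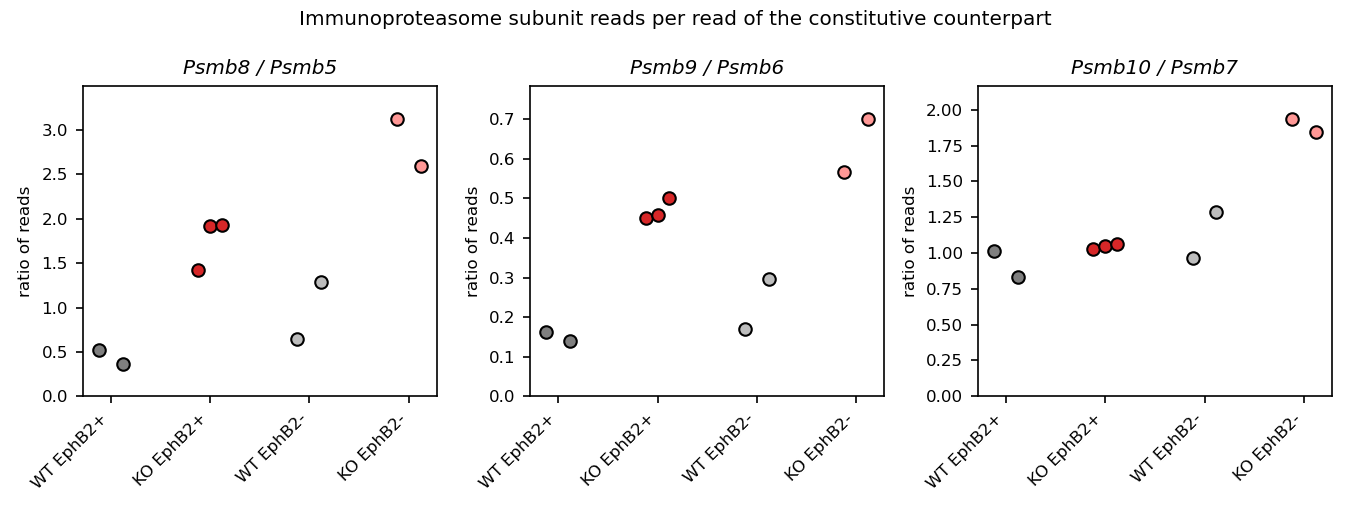
Ratio of reads of each immunoproteasome catalytic gene to the constitutive gene it replaces (Psmb8 to Psmb5, Psmb9 to Psmb6, Psmb10 to Psmb7; vertical axis, linear from 0), one point per library, by group. All KO libraries lie above all WT libraries of the same sort for Psmb8 to Psmb5 (0.517 or less in WT and 1.42 or more in KO EphB2-positive libraries).

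Other genes of the pathway were read from lists of genes with known roles. Their counts stand against the shares of all genes given above: 7.01% rose and 8.07% fell in KO EphB2-positive cells, and 13.7% rose and 16.2% fell in KO EphB2-negative cells. Of 5 proteasome activators and inhibitors, 2 rose in KO in EphB2-positive cells, Psme3 (0.78 ± 0.17, adjusted p = 0.016) and Psme2 (0.53 ± 0.15, adjusted p = 0.038), 0 fell, and Psme1 did not pass (0.15 ± 0.14, adjusted p = 0.51). In EphB2-negative cells Psme2 (1.04 ± 0.16, adjusted p = 0.0022) and Psme1 (0.58 ± 0.15, adjusted p = 0.019) rose and Psme3 fell (-0.67 ± 0.19, adjusted p = 0.027). Psme1 and Psme2 encode the interferon-induced PA28 cap, and Psme3 a nuclear cap. Psme3 was one of the genes whose genotype effect differed between the sorts (1.45 ± 0.26, adjusted p = 0.013). With no TMM factor, Psme2 in EphB2-positive cells and Psme1, Nploc4, Syvn1 and Ubb in EphB2-negative cells lost their calls, and with DESeq2 size factors Txnl1 and Nfe2l2 in EphB2-negative cells and Rps27a between the sorts in KO did. Of 5 assembly factors of the 20S core, 0 passed in EphB2-positive cells with edgeR or DESeq2, with 0 at an unadjusted p under 0.05. In EphB2-negative cells Psmg2 (-1.23 ± 0.34, adjusted p = 0.024) and Psmg1 (-0.96 ± 0.28, adjusted p = 0.028) fell in KO, while DESeq2 called 0 of the 5.

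Among 7 proteins that bind the proteasome, 1 rose in KO EphB2-positive cells, Usp14 (1.04 ± 0.16, adjusted p = 0.0024), which trims ubiquitin from substrates on the cap. Its mean was 189 CPM in KO and 92.3 CPM in WT. Of the 8345 exon bases of Usp14, 2169 are shared with Thoc1, which is also in the tables, so its reads are less certain, and Txnl1 shares 117 with Wdr7. The same limit holds for other named genes that share exon bases with a counted gene. These were Vcp (352 bases), Psmb9 (212, with Tap1), Rps27a (160), Syvn1 (91), Ngly1 (21) and Psme1 (14). In EphB2-negative cells Usp14 fell (-0.88 ± 0.18, adjusted p = 0.0071), as did the other cap deubiquitinase gene Uchl5 (-0.93 ± 0.19, adjusted p = 0.0068) and the thioredoxin-like Txnl1 (-0.57 ± 0.19, adjusted p = 0.044), while Adrm1, named as the 1 gene of the list that rose there, gave 0.51 ± 0.17, adjusted p = 0.048. The genotype effect differed between the sorts for all 3, against 6.54% of all genes in that direction: Usp14 (1.92 ± 0.24, adjusted p = 0.0069), Uchl5 (1.41 ± 0.24, adjusted p = 0.013) and Txnl1 (0.94 ± 0.25, adjusted p = 0.038). Of 4 ubiquitin genes, 0 changed in EphB2-positive cells with edgeR or DESeq2, and 0 had an unadjusted p under 0.05. In EphB2-negative cells Ubb rose (0.63 ± 0.15, adjusted p = 0.014), and its effect differed between the sorts (-0.77 ± 0.20, adjusted p = 0.039, not called with no TMM factor). Of 11 shuttle and unfoldase genes, 3 rose in KO EphB2-positive cells, Rad23b (0.85 ± 0.14, adjusted p = 0.0037), Nploc4 (0.77 ± 0.16, adjusted p = 0.013) and Vcp (0.63 ± 0.15, adjusted p = 0.019), which deliver or extract ubiquitin-tagged proteins for the cap. In EphB2-negative cells Nploc4 rose (0.73 ± 0.18, adjusted p = 0.015) and Ubqln4 fell (-0.74 ± 0.18, adjusted p = 0.014). Rad23b was the 1 gene of this list whose effect differed between the sorts (1.11 ± 0.21, adjusted p = 0.014). The last list, of 8 genes, held genes of Nrf1 activation, ubiquitin-activating enzymes and Nfe2l2, which is not the Nrf1 gene Nfe2l1. In EphB2-positive cells 0 of the 8 passed with edgeR or DESeq2 (1 higher and 1 lower at an unadjusted p under 0.05). In EphB2-negative cells Syvn1 rose (0.59 ± 0.16, adjusted p = 0.020) and Nfe2l2 fell (-0.53 ± 0.16, adjusted p = 0.030), while DESeq2 called 1 of the 8 higher and 0 lower.

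Several of these calls rested on single libraries, by fits that left out each in turn and were added after seeing the data. In EphB2-negative cells Psme3 (-0.44), Psmg1 (-0.63), Psmg2 (-0.84), Syvn1 (0.51) and Txnl1 (-0.41) did not pass without WT EphB2-negative replicate 1, and Adrm1 (0.34) did not pass without replicate 2. Of the genes named for these lists in those cells, Psme2 passed every time (0.92 to 1.18), and the other 13 lost the call without KO EphB2-negative replicate 2. All of these 13 except Nfe2l2, Psmg2, Uchl5 and Usp14 also lost it without KO EphB2-negative replicate 1. Adrm1 and Txnl1 passed in 1 of 9 fits each, and Nfe2l2 in 5 of 9. In EphB2-positive cells Usp14 passed every time, Rad23b failed without WT replicate 2, and Nploc4 failed without WT replicate 1 or KO replicate 2. Psme3 failed without either WT library or KO replicate 1 or 2, Vcp without any 1 of the 5 libraries, and Psme2 passed in 2 of 9 fits. For the difference between the sorts, Usp14 passed every time. Psme3 and Rad23b failed without either WT EphB2-positive library or KO EphB2-negative replicate 2, Uchl5 without WT EphB2-positive replicate 2 or KO EphB2-negative replicate 2, and Txnl1 and Ubb passed in 2 of 9 fits, those without a WT EphB2-negative library.

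Between the sorts in KO, 5 of the 7 proteasome-bound genes and 3 of the 5 assembly factors were higher in EphB2-positive cells and 0 lower, against 26.4% of all genes higher and 29.2% lower. Usp14 (2.03 ± 0.17, adjusted p = 3.5e-05), Uchl5 (1.64 ± 0.17, adjusted p = 9.4e-05) and Txnl1 (1.13 ± 0.17, adjusted p = 0.00054) led the first list, and Psmg2 (1.54 ± 0.32, adjusted p = 0.0028), Psmg1 (1.50 ± 0.26, adjusted p = 0.0010) and Psmg3 (1.24 ± 0.27, adjusted p = 0.0036) the second. Of the 5 activators and inhibitors 2 were higher and 2 lower, and Psme3 had the largest rise of them (1.45 ± 0.18, adjusted p = 0.00019). Rad23b, Ubqln4 and Ubqln2 led the 6 of 11 shuttle and unfoldase genes that were higher, with Rad23b at 1.20 ± 0.14. Ubb was lower (-0.68 ± 0.14, adjusted p = 0.0024) and Rps27a, which encodes a fusion of ubiquitin and a ribosomal protein, higher (0.62 ± 0.22, adjusted p = 0.036). Of the 8 genes in the list of Nrf1 activation, ubiquitin activation and Nfe2l2, 1 was higher and 4 lower. The E1 gene Uba6 was higher (1.35 ± 0.30, adjusted p = 0.0040). Ngly1 (-1.21 ± 0.31, adjusted p = 0.0083) and Sel1l (-0.88 ± 0.22, adjusted p = 0.0078), which act upstream of Nrf1 at the endoplasmic reticulum, were lower. Leaving out each library in turn, Ubqln2, Ngly1 and Sel1l lost the call without KO EphB2-negative replicate 2, Rps27a passed in 2 of 9 fits, and the other genes named here passed every time. In WT, 0 genes of these 6 lists passed between the sorts with edgeR, with 4 higher and 3 lower at an unadjusted p under 0.05, and DESeq2 called 1, lower in EphB2-positive cells.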

How the data were processed

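Poly(A) RNA of 9 libraries in 4 groups was counted per gene. The deposited files hold whole-number read counts for 24421 genes and 5 summary lines per library, made by the authors. The submitters' processing notes name CASAVA 1.4, FastQC, Bowtie2, HTSeq, DESeq2 and mm10 with no roles. The gene annotation and strand setting used were not given in the sources used here. The cDNA was amplified by PCR, and no molecular identifiers are named in the labels, so counting precision covers counting error only.

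The summary lines were left out (reads in no feature were 9.97 to 14.65% of reads). Genes were filtered with filterByExpr, libraries scaled with TMM factors, and 11577 genes tested with edgeR 4.0.16 (robust quasi-likelihood fit of 4 group means, 5 residual degrees of freedom, R 4.3.3), with Benjamini-Hochberg adjustment over all of them and an adjusted p under 0.05 as the threshold. Scripts were tested on simulated data. Alternatives were DESeq2 1.42.0, other scalings, no filter, other sets of libraries and blocks. The genes named in full in a comparison were up to 6 that passed with the largest change and the 8 genes followed throughout; other lists name up to 3 that passed. The genes and lists were chosen with earlier results of these data known. Gene positions are from GENCODE on GRCm38.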

Additional observations from a re-analysis of the deposited data

Results flagged for a closer look

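The KO effect on Psmd14, the lid deubiquitinase gene, differed between the sorts by the interaction test in edgeR. Its log2 fold change of KO against WT was 0.57 ± 0.15 in EphB2-positive and -0.22 ± 0.16 in EphB2-negative cells, a difference of 0.80 (adjusted p = 0.041). Of the 3 KO EphB2-positive libraries, each lay above both WT libraries, and both KO EphB2-negative libraries lay below both WT libraries. Psmd14 was 1 gene called of 34, against 6.54% of all genes called in that direction. Its call was lost with no filter on low counts, with the replicate number as a block and, as given above, in most fits without 1 library. Over the fits without 1 library the difference ran from 0.67 to 0.94.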

How the results depend on the processing

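With DESeq2's size factors in the edgeR fit, Psmb6 between the sorts in KO turned to -0.0078 and Psmb7 in the difference between the sorts to -0.014; the DESeq2 Wald test gave -0.0018 and -0.011 for them, and called 942 genes of all between the sorts in WT against 513. With no TMM factor, 2 proteasome genes rose in KO EphB2-positive cells, and in EphB2-negative cells 0 rose and 5 fell, with a median log2 fold change of -0.11 and Psmb6 at -0.031, Psma7 at -0.22 and Psmd11 at -0.048. That scaling gave a median of 0.57 between the sorts in KO, and for the difference between the sorts 5 genes, a median of 0.38, and 0.039 for Psmb5, 0.032 for Psmb6 and 0.052 for Psmd4. It moved the median of all genes to -0.13 in EphB2-positive and -0.42 in EphB2-negative cells, 0.23 between the sorts in KO and 0.28 for the difference, and the cause was not tested. Without the filter, 0 genes passed for the difference. Fits with only the 2 groups compared called 20 proteasome genes (3734 of all genes) in EphB2-positive cells, 0 (149 of all genes) in EphB2-negative cells, and 1 gene of all between the sorts in WT.

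The labels do not say whether the replicate numbers in the titles pair the libraries. Deviations from the group means correlated, between same-numbered libraries of the 2 sorts, at 0.132 in WT and 0.038 and -0.071 in KO. In a group of 2 libraries the deviations are equal and opposite, so such correlations cannot decide a pairing. With the replicate number as a block, 2 proteasome genes rose in KO EphB2-positive cells (1055 of all genes passed, against 1746), and 0 (895 of all genes, against 1430) passed for the difference. The codes in the library names pair KO libraries differently, and deviations of libraries with the same code correlated at 0.132 in WT and 0.071 and 0.108 in KO. With a block on these codes, 0 proteasome genes rose between the sorts in WT (median 0.21; 1248 of all genes passed, against 513), and 11 rose and 0 fell between the sorts in KO (median 0.31; 5829 of all genes).

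Leaving out each library in turn, the number of proteasome genes that rose ran from 0 to 19 in KO EphB2-positive cells (median 0.34 to 0.46; 568 to 3479 of all genes passed in either direction) and from 0 to 17 in KO EphB2-negative cells (0 to 5 fell; median -0.030 to 0.47; 1096 to 5834 of all genes). It ran from 0 to 18 between the sorts in WT (median -0.053 to 0.42; 0 to 5009 of all genes), from 8 to 19 between the sorts in KO (median 0.30 to 0.42; 4437 to 7697 of all genes) and from 0 to 14 for the difference (median -0.032 to 0.33; 32 to 3996 of all genes). Single genes that changed sign were Psma7 in EphB2-negative cells (-0.16 to 0.45), Psmb6 (-0.059 to 0.63) and Psmd14 (-0.26 to 0.015) between the sorts in WT, and, for the difference, Psma7 (-0.020 to 0.59), Psmb5 (-0.58 to 0.15), Psmb6 (-0.55 to 0.13), Psmb7 (-0.36 to 0.37), Psmd11 (-0.018 to 0.19) and Psmd4 (-0.44 to 0.088). Where this leaves 1 library in a group, that library is assumed to vary like the others.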
